A study of Mus musculus with 17 samples.

Results

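The BCL2 family genes Bcl2, Bcl2l1, Bcl2l2, Mcl1, Bcl2l11, Bid, Bad, Bak1, Bok and Bmf were followed in isolated mouse islets over the first 48 h of culture. They were taken as every probe set that the platform's annotation gives to 1 of these 10 symbols alone, which came to 35 of the 45037 probe sets tested and 10 of the 18193 genes with a symbol of their own. The samples were islets of C57BL/6 mice, with no genetic change and no drug, kept in F12K medium with 10% fetal bovine serum and harvested at 0, 24 or 48 h after isolation. Each of 6 batches was pooled from the islets of 4 mice and divided over the times, so a batch is a separate pool and not a single animal. The times hold 5, 6 and 6 arrays in the order 0, 24 and 48 h, since batch 5 is used here without a 0 h array. Each array was an Affymetrix GeneChip for the whole mouse genome, and its values are normalised log2 levels, in which a difference of 1 is a doubling.

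Proteins of the BCL2 family decide at the mitochondrial outer membrane whether a cell enters the intrinsic pathway of apoptosis. Guardians such as Bcl2, Bcl2l1 (Bcl-xL), Bcl2l2 (Bcl-w) and Mcl1 hold the pore formers Bak1 and Bax in check, and BH3-only proteins such as Bcl2l11 (Bim), Bid, Bad and Bmf bind the guardians or the pore formers when a cell is stressed. In islets the balance between these classes is known for its part in beta cell loss after isolation and during transplantation.

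By 1 probe set per gene, the one with the highest mean, 0 of the 10 genes passed limma's test at an adjusted p under 0.05 at 24 h or at 48 h against 0 h, or at 48 h against 24 h. Over all genes 12.1% passed at 24 h against 0 h, 11.7% at 48 h against 0 h and 0.759% at 48 h against 24 h. At an unadjusted p under 0.05 the members counted 1 of 10 at 24 h and 2 of 10 at 48 h against 0 h, where 25.5% and 26.6% of all genes did. The median log2 difference of the 10 genes was 0.10 at 24 h and 0.02 at 48 h against 0 h, beside -0.01 and -0.02 for all genes. Counted over all probe sets, 3 of 35 passed at 24 h against 0 h, all higher, and the background was 8.58%, of which 3.86% higher and 4.72% lower. At 48 h against 0 h it was 2 of 35, both higher, with a background of 8.47%, of which 4.67% higher and 3.8% lower, and at 48 h against 24 h it was 0 of 35, with a background of 0.444%. In either direction these shares, 8.57% at 24 h and 5.71% at 48 h against 0 h, lay near or below those of the whole table. Set against the higher ones alone, they lay above the 3.86% and 4.67%, on counts of 3 and 2 probe sets. With the batch as a block, 5 of 35 probe sets (14.3%) passed at 24 h against 0 h, above the 8.08% of the whole table in that fit, and 3 of 35 (8.57%) at 48 h against 0 h, beside 7.93%. The probe sets that passed without the block were a pair of Mcl1 and, at 24 h, 1 of Bmf, and in both genes the other probe sets did not pass. The comparisons with 0 h share the same 0 h arrays and are not independent of each other.

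Promoter windows are shown for Mcl1 and Bmf because these genes held the probe sets that passed. The windows are those of RefSeq on GRCm38.p6, 250 bases before to 50 bases after an annotated start, read 5′ to 3′ on the gene's strand. The Mcl1 window lies at chr3:95658471-95658770 on the plus strand, and the Bmf window, the most upstream of its 3, at chr2:118549637-118549936 on the minus strand. Capitals mark matches, on either strand, to the GC box GGGCGG and the CCAAT box CCAAT.
Mcl1: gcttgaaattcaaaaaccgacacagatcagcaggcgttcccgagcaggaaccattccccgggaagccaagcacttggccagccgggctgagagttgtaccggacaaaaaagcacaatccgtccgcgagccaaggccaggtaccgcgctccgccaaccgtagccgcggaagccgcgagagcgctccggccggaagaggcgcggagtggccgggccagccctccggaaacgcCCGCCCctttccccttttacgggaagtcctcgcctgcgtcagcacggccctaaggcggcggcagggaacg
Bmf: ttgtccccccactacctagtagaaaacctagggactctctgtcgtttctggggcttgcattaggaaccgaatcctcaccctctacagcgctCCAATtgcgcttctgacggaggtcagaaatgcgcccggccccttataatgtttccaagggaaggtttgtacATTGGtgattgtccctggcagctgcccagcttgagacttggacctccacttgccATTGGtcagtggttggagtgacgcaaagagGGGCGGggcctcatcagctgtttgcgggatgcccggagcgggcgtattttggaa

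The Mcl1 window held 1 GC box, starting at position -20 from the start on the minus strand, and the Bmf window held 1 at position -4. CCAAT stood in this Bmf window 3 times, at positions -159, -88 and -34, and was not among the letters of the Mcl1 window. All 10 genes had a window, 16 in total. GGGCGG was in 9 of the 16 windows, those of 8 genes, against 35.7% of all 32851 windows, and CCAAT in 5 of 16 against 37.4%. The FOXO core TGTTTAC was in 1 member window, that of Bcl2l11, and in 3.65% of all. The forms CACGTG (E-box), TGANTCA (AP-1), TGACGTCA (CRE), TGATGCAA (CHOP/ATF4), TTCNNNGAA (STAT) and a form of the NF-kappaB motif were in none of the 16 windows, against 7.15%, 7.81%, 1.79%, 0.895%, 8.3% and 0.411% of all windows. All forms were searched on both strands; no matches overlapped in the printed windows, and a match is a run of letters, not a measured site.

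The tissue label was borne out by beta cell genes: Ins2 averaged 13.76 and Iapp, the gene of islet amyloid polypeptide, 13.02 on the log2 scale at 0 h. The means of several other cell types moved with time, but those of 6 duct and 9 lymphocyte markers moved little. At 0, 24 and 48 h the duct mean averaged 5.79, 5.80 and 5.67, and the lymphocyte mean 3.45, 3.41 and 3.43. The lymphocyte mean lay near the table's median. The mean over 13 endothelial markers ran between 5.42 and 5.72 at 0 h, 4.80 and 4.99 at 24 h, and 4.35 and 4.75 at 48 h, so no array of one time overlapped another time. Of these markers 4 of 13 had a mean under the table's median, Pecam1, Tie1 and Vwf among them. The mean over 14 macrophage and dendritic markers ran between 5.44 and 6.11 at 0 h, 4.83 and 5.35 at 24 h, and 5.07 and 5.50 at 48 h. The mean over 13 acinar markers ran between 5.47 and 8.05 at 0 h, 4.10 and 6.91 at 24 h, and 3.85 and 5.47 at 48 h. The mean over 11 fibroblast and mural markers ran between 4.65 and 4.96 at 0 h, 4.10 and 4.27 at 24 h, and 4.54 and 4.83 at 48 h, so the 24 h arrays were below all others. The mean over 7 markers of other endocrine cells ran between 8.22 and 8.96 at 0 h, 7.67 and 8.30 at 24 h, and 7.56 and 8.53 at 48 h. The mean over 10 beta cell markers averaged 10.54 ± 0.06 at 0 h, 10.13 ± 0.12 at 24 h and 10.32 ± 0.05 at 48 h (SD). All 0 h arrays were above all later ones in this mean. Not all markers of a list moved together in limma's test against 0 h. Of the 13 endothelial markers 1 rose and 6 fell at 24 h, and 9 fell at 48 h. Of the 14 macrophage and dendritic markers 1 rose and 8 fell at 24 h, and 2 rose and 5 fell at 48 h. Of the 11 fibroblast and mural markers 4 fell at 24 h, and 3 rose and 1 fell at 48 h. Of the 10 beta cell markers 7 fell at 24 h and 5 at 48 h, and of the 7 other endocrine markers 4 and 1. In whole islets, fewer cells of a type and less RNA per cell cannot be told apart. The difference between 3′ and 5′ actin probe sets, a sign of RNA degradation, averaged 2.14 ± 0.11 at 0 h, 2.10 ± 0.15 at 24 h and 2.02 ± 0.13 at 48 h (SD). Every pair of arrays correlated between 0.976 and 0.995, and batch 3 at 0 h and batch 5 at 24 h correlated least with their groups.

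Mcl1 is a short-lived guardian that binds Bak1 and the BH3-only proteins. It had 6 probe sets, all above the table's median of 3.52 on every array. Probe set 1448503_at read 8.05, 7.70, 7.60, 7.27 and 7.40 at 0 h, a lowest, median and highest of 7.99, 8.47 and 8.72 at 24 h, and of 8.11, 8.19 and 8.49 at 48 h. The batch 1 array was the highest at 0 h and overlapped the lowest 24 h array. All 48 h arrays were above all 0 h arrays, which 6.6% of all probe sets showed in either direction. At 24 h this probe set was higher by 0.78 ± 0.14 (SE) on the log2 scale, 1.72-fold, with limma's adjusted p = 0.00117. At 48 h it was higher than at 0 h by 0.65 ± 0.14, 1.57-fold, with adjusted p = 0.00618. It was higher than at 0 h in 5 of 5 batches at both times.

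Probe set 1416881_at of Mcl1 read 6.25, 5.99, 5.96, 5.38 and 5.81 at 0 h, a lowest, median and highest of 6.21, 6.87 and 7.14 at 24 h, and of 6.30, 6.60 and 6.94 at 48 h. Again only 1 pair of arrays overlapped at 24 h, the batch 5 array and the batch 1 array at 0 h. None overlapped between 48 h and 0 h, as in 6.6% of all probe sets in either direction. The log2 difference was 0.93 ± 0.17 (SE) at 24 h, 1.91-fold with limma's adjusted p = 0.00101, and 0.72 ± 0.17 at 48 h, 1.65-fold with adjusted p = 0.00898, higher in 5 of 5 batches at each time. Between 48 h and 24 h neither probe set passed, with log2 differences of -0.13 and -0.21. Both calls at both times were kept whichever single array was left out, with a highest adjusted p of 0.0315.

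The other 4 probe sets of Mcl1 did not pass in any comparison. Probe set 1416880_at, annotated to the same GenBank record as the 2 that rose, had log2 differences from 0 h of 0.12 ± 0.14 at 24 h and -0.01 ± 0.14 at 48 h (SE). The 3 probe sets 1456243_x_at, 1437527_x_at and 1456381_x_at are of the kind whose probes may also bind other transcripts, and no record is listed for them. Their differences from 0 h lay between -0.07 and 0.02, and the interval for 1456243_x_at, the probe set with the highest mean, was -0.22 to 0.14 at 24 h. Over the 17 arrays these correlated with each other at Pearson r of 0.90 to 0.97, and with the rising pair at r of -0.08 to 0.17, or 0.10 to 0.47 once the mean of each time was removed. The rising pair correlated at r = 0.77 over the 17 arrays and at r = 0.30 once the mean of each time was removed. Probe set 1416880_at correlated with 1448503_at at r = 0.45, and at r = 0.60 with the time means removed, so within a time it varied with a probe set that rose. The deposited values do not show which of the 6 measures the Mcl1 transcript.

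**Figure D1:**
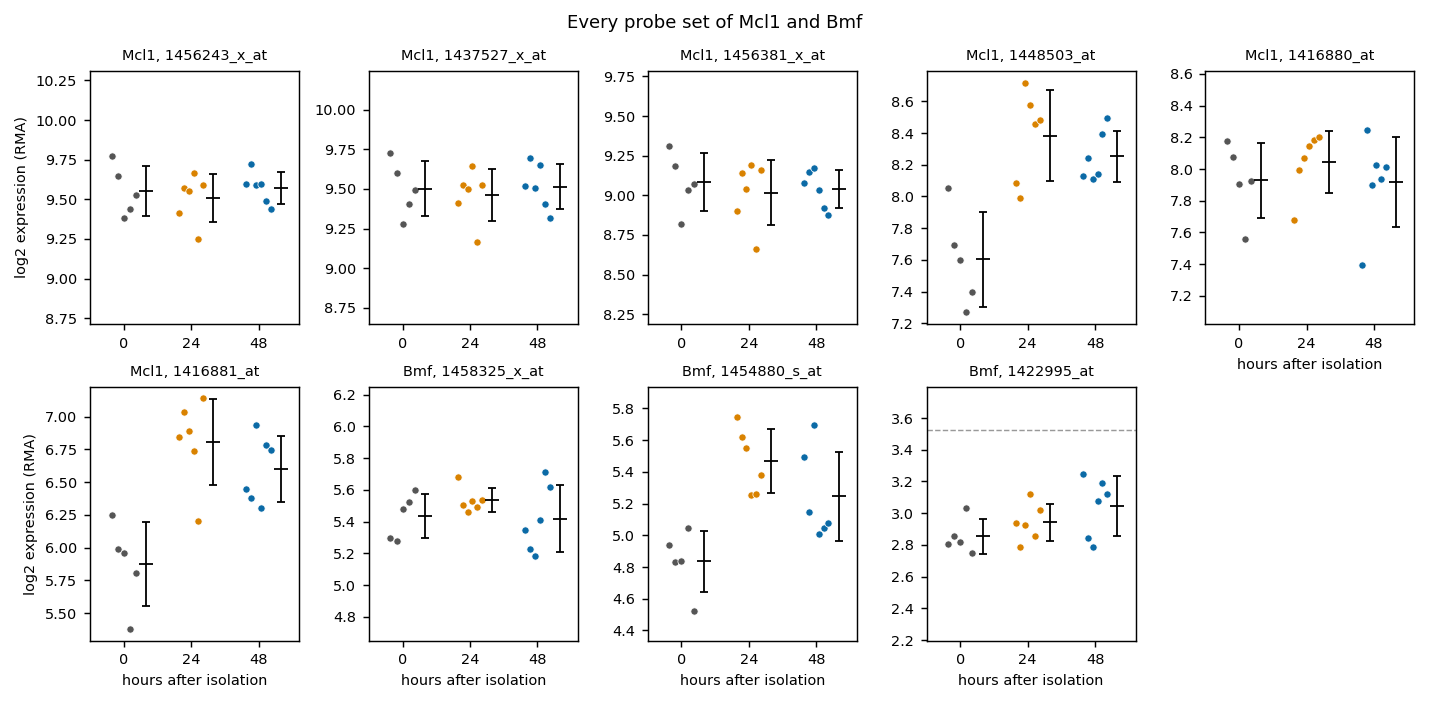
Log2 level by array (points) at 0, 24 and 48 h after isolation for the 6 probe sets of Mcl1 and the 3 of Bmf, with the mean and SD of each time as a black bar; the dashed line is the table's median. 1448503_at and 1416881_at of Mcl1 passed as higher at 24 h, where they overlap 0 h, and at 48 h, where they do not. 1454880_s_at of Bmf passed as higher at 24 h, without overlap, and at 48 h it overlaps 0 h and did not pass. The other 6 panels overlap between times.

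Bmf encodes a BH3-only protein that dynein light chain holds at the cytoskeleton until stress releases it. Probe set 1454880_s_at, a kind that may be shared by related transcripts, read 4.94, 4.83, 4.84, 5.04 and 4.52 at 0 h, a lowest, median and highest of 5.26, 5.46 and 5.75 at 24 h, and of 5.01, 5.11 and 5.69 at 48 h. All 24 h arrays were above all 0 h arrays, which 6.28% of all probe sets showed in either direction, and the 48 h arrays overlapped both times. At 24 h it was higher than at 0 h by 0.63 ± 0.13 (SE), 1.55-fold, with limma's adjusted p = 0.00371, in 5 of 5 batches. At 48 h the difference was 0.41 ± 0.13 with adjusted p = 0.0619, and with batch as a block 0.45 with adjusted p = 0.0203. It passed at 48 h also with median centring, repeated quantile normalisation or a filter on level, at adjusted p of 0.0492, 0.0397 and 0.0441. The representing probe set 1458325_x_at read 5.44 ± 0.14 at 0 h, 5.53 ± 0.08 at 24 h and 5.42 ± 0.21 at 48 h (SD), and did not pass. It is of the kind whose probes may also bind other transcripts. By the mean of all its probe sets Bmf was higher by 0.27 at 24 h, with adjusted p = 0.00646. The r of 1458325_x_at with 1454880_s_at over the 17 arrays was -0.06. The last, 1422995_at, was below the table's median on all 17 arrays and had differences from 0 h of 0.09 at 24 h and 0.19 at 48 h.

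The differences of these 3 probe sets ran alongside the shifts in marker means given above. The part of the beta cell, other endocrine, duct, lymphocyte, fibroblast and mural means was not tested. With the endothelial mean as a covariate, the 24 h difference was 1.42 ± 0.43 for 1416881_at, 0.75 ± 0.38 for 1448503_at and 0.73 ± 0.35 for 1454880_s_at (SE), with limma's adjusted p of 0.225, 0.613 and 0.585. That covariate does not overlap between times, so time and endothelial content cannot be told apart in it. With the macrophage mean the 24 h adjusted p was 0.0068 for 1416881_at, 0.148 for 1448503_at and 0.055 for 1454880_s_at, at differences of 1.38, 0.73 and 0.83. With the acinar mean all 3 passed at 24 h against 0 h, with adjusted p of 0.00198, 0.00358 and 0.00481, while at 48 h neither Mcl1 probe set passed, with 0.0937 for 1416881_at and 0.196 for 1448503_at. The macrophage mean does not overlap between 0 h and 24 h either. The acinar mean narrowly does not overlap between 0 h and 48 h, at a lowest of 5.472 and a highest of 5.4712. In those comparisons, too, time and the covariate cannot be told apart. Every one of these fits kept the direction.

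Between 24 h and 0 h, 0 of the 10 representing probe sets were free of overlap, against 8.78% of all genes. Of all 35 member probe sets 2 were, 1454880_s_at of Bmf and 1435449_at of Bcl2l11, against 6.28% of all probe sets. Between 48 h and 0 h it was 1 of 10, that of Bcl2l11, against 9.17%, and 3 of 35, against 6.6%. Between 48 h and 24 h 0 of the 35 were, against 1.11% of all probe sets. None of the remaining guardians passed with the settings used throughout. Bcl2, the founding member of the family, was represented by 1457687_at at 5.08 ± 0.23 at 0 h, 4.88 ± 0.17 at 24 h and 5.01 ± 0.19 at 48 h (SD). Its log2 difference from 0 h was -0.20 at 24 h, with a 95% interval of -0.44 to 0.03 and limma's adjusted p = 0.346. Bcl2 had 4 other probe sets, 3 of them below the table's median on all 17 arrays, and none passed. The largest of their differences from 0 h was -0.32 ± 0.14 (SE) at 48 h in 1422938_at, with adjusted p = 0.176. By the mean of its 5 probe sets Bcl2 was lower by 0.19 at 48 h against 0 h, with adjusted p = 0.0399. Bcl2l1, whose long form is the Bcl-xL protein of adult beta cells, read 6.76 ± 0.15 at 0 h, 6.89 ± 0.16 at 24 h and 6.82 ± 0.10 at 48 h (SD) by 1420888_at. The interval of its difference from 0 h was -0.05 to 0.31 at 24 h and -0.12 to 0.23 at 48 h, and its 3 other probe sets were below the table's median on all 17 arrays.

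Bcl2l2 encodes Bcl-w, a guardian known from neurons and testis. Its probe set 1423572_at read 9.29, 9.36, 8.76, 9.16 and 9.21 at 0 h, a lowest, median and highest of 8.62, 9.12 and 9.37 at 24 h, and of 9.27, 9.49 and 9.73 at 48 h. The 48 h arrays overlapped both other times but were higher than the 24 h array of the same batch in 6 of 6 batches. The difference at 48 h was 0.44 ± 0.13 (SE) against 24 h and 0.35 ± 0.13 against 0 h, with limma's adjusted p of 0.145 and 0.117, so neither passed. Without a covariate the 24 h difference from 0 h was -0.09, with limma's adjusted p = 0.791. With the macrophage mean as a covariate Bcl2l2 passed at 24 h against 0 h, at -0.69 ± 0.16 with adjusted p = 0.0207. It also passed at 48 h against 24 h, at 0.63 ± 0.10 with adjusted p = 0.00444. The macrophage mean does not overlap between 0 h and 24 h, so time and macrophage content cannot be told apart between them. The difference at 48 h against 0 h was -0.059 with that covariate and -0.31 with the endothelial mean, and passed with neither. Its 3 other probe sets had differences of -0.19 to 0.07 at 48 h against 0 h.

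The pore formers showed no passing difference. Bak1, which opens the outer membrane once activated, stayed below the table's median on all 17 arrays by both of its probe sets, so its level was not separated from background. Its 1418991_at read 3.23 ± 0.12 at 0 h, 3.20 ± 0.10 at 24 h and 3.23 ± 0.20 at 48 h (SD). Bok, a relative of Bak1 and Bax that is turned over through the proteasome, had 1 probe set at 5.31 ± 0.15 at 0 h, 5.46 ± 0.17 at 24 h and 5.30 ± 0.15 at 48 h (SD). Its difference from 0 h had a 95% interval of -0.06 to 0.35 at 24 h and -0.22 to 0.18 at 48 h. Bax had no probe set with its symbol alone and was not analysed here.

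**Figure D2:**
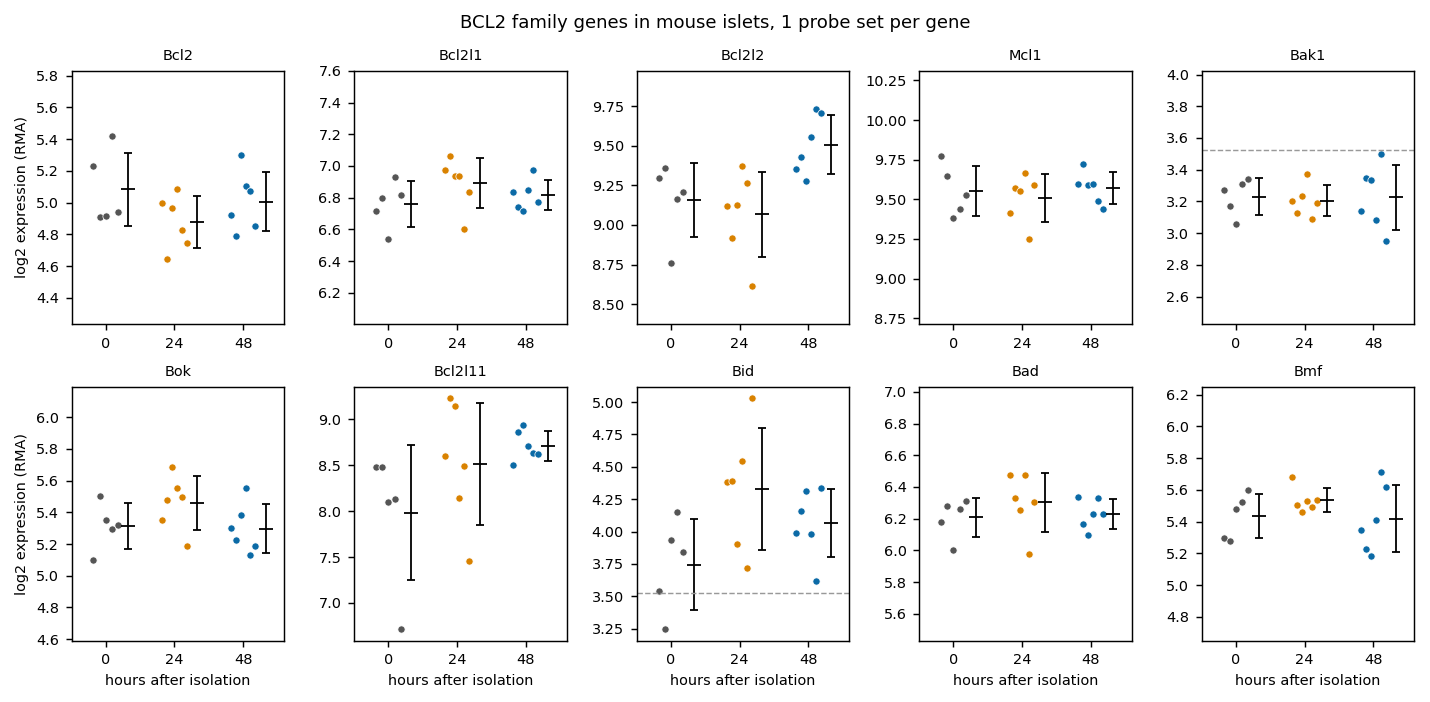
Log2 level by array (points) at 0, 24 and 48 h after isolation for the representing probe set of each of the 10 genes, with the mean and SD of each time as a black bar and the table's median as a dashed line. The times overlap in every panel except Bcl2l11, where all 48 h arrays are above all 0 h arrays.

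Bcl2l11 encodes Bim, a BH3-only protein that binds every guardian. Its probe set 1456005_a_at read 8.49, 8.48, 8.10, 8.14 and 6.72 at 0 h, a lowest, median and highest of 7.46, 8.55 and 9.23 at 24 h, and of 8.50, 8.67 and 8.94 at 48 h. All 48 h arrays were above all 0 h arrays, as in 9.17% of all genes in either direction, and batch 6 was far below the other batches at 0 h and lowest at 24 h. The difference from 0 h was 0.53 ± 0.30 (SE) at 24 h and 0.73 ± 0.30 at 48 h, with limma's adjusted p of 0.37 and 0.161, although the 48 h array was higher in 5 of 5 batches. Without the 0 h array of batch 6 the differences were 0.21 at 24 h and 0.41 at 48 h, with adjusted p of 0.742 and 0.391. With the endothelial mean as a covariate they were -0.63 ± 0.75 and -1.17 ± 1.18 (SE) and did not pass. A second probe set, 1435449_at, was below the table's median in all 17 arrays and had a difference of 0.39 ± 0.14 at 24 h against 0 h with adjusted p = 0.0897, and with batch as a block adjusted p = 0.00954. The 3 others had differences from 0 h of -0.17 to 0.26 over both times and did not pass.

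Bid, the BH3-only protein that caspase-8 cleaves to link death receptors to mitochondria, read 3.54, 3.25, 3.94, 4.15 and 3.84 at 0 h by 1417045_at. At 24 h its lowest, median and highest were 3.72, 4.38 and 5.03, and at 48 h 3.62, 4.08 and 4.33. The times overlapped, the 24 h array was higher than the 0 h array in 4 of 5 batches, and levels this close to the table's median were not separated from background. The 24 h difference was 0.58 ± 0.20 (SE) with limma's adjusted p = 0.0897. With batch as a block it was 0.69 with adjusted p = 0.017, and without the 24 h array of batch 5 it was 0.71 with adjusted p = 0.0281. It passed also without batch 5, with array weights and without the 2 arrays that stand apart, at adjusted p of 0.0221, 0.0273 and 0.0311, so whether Bid passed turned on these choices. Its other 2 probe sets were below the table's median on all 17 arrays, with 24 h differences of 0.07 and 0.08.

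Bad, a BH3-only protein that 14-3-3 proteins hold in the cytosol while it is phosphorylated, read 6.21 ± 0.12 at 0 h, 6.30 ± 0.18 at 24 h and 6.23 ± 0.09 at 48 h (SD) by 1416582_a_at. Its second probe set, 1416583_at, had differences from 0 h of 0.19 ± 0.12 at 24 h and 0.24 ± 0.12 at 48 h (SE), with limma's adjusted p of 0.446 and 0.277. The 2 correlated at r = 0.58 over the 17 arrays.

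**Figure D3:**
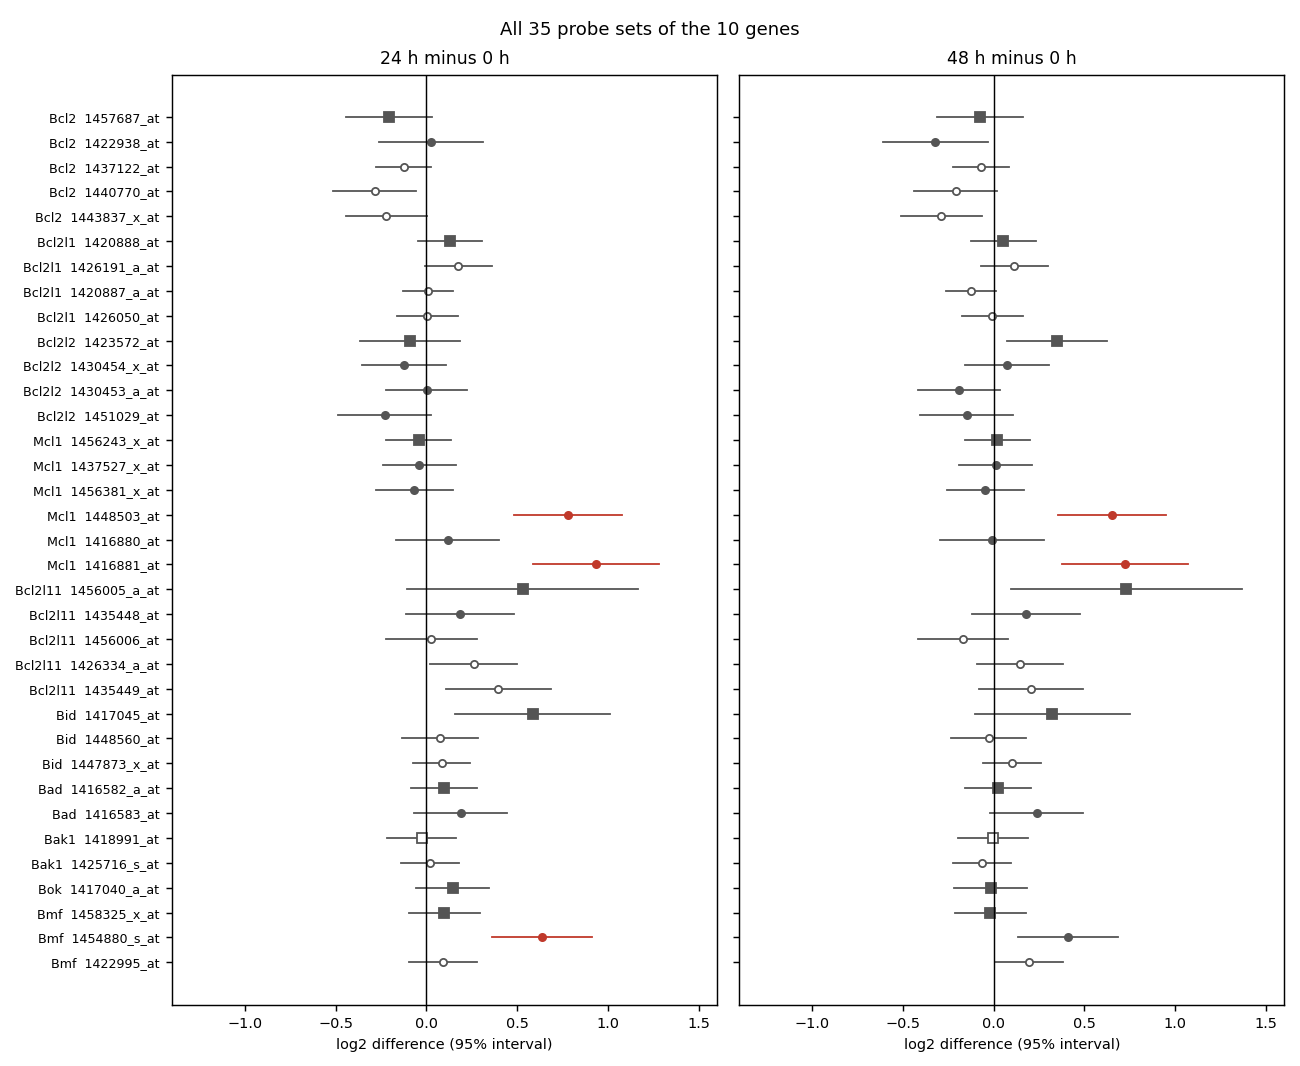
Log2 difference of all 35 probe sets at 24 h (left) and 48 h (right) against 0 h, with 95% intervals; squares mark the probe set that represents a gene, open symbols a mean under the table's median, and red an adjusted p under 0.05. Red symbols are the Mcl1 pair in both panels and 1454880_s_at of Bmf at 24 h.

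Among genes with a mean above the table's median, those whose levels most resembled the passing probe sets over the 17 arrays were named as a description. For 1448503_at of Mcl1 they were Psmc5 at Pearson r = 0.95, Got1 at 0.91 and Rars at 0.90. For 1416881_at they were Bag3 at 0.92, Snrpd3 and Psma7 at 0.90 each. For 1454880_s_at of Bmf they were Sh3yl1 at 0.90, Mgat4b and Krt18 at 0.88 each. The arrays share the time course, so time alone raises such values; with the mean of each time removed they ran from 0.66 to 0.86.

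Of 17 other family genes listed, 12 were measured under their symbol alone, and 1 rose at 24 h against 0 h, with a list median of 0.07 at 24 h and at 48 h. Here and in the lists that follow, the background for genes is the 12.1% and 11.7% given above (5.44% higher and 6.66% lower at 24 h, 6.45% higher and 5.27% lower at 48 h), with medians of -0.01 and -0.02. Among genes with a mean above the table's median, as most of the listed genes had, 16.9% passed at 24 h and 16% at 48 h. The gene that rose was Pmaip1 (Noxa), a BH3-only protein that binds Mcl1. It read 2.48 ± 0.09 at 0 h, 3.02 ± 0.15 at 24 h and 2.43 ± 0.15 at 48 h (SD), under the table's median on all 17 arrays. The 24 h arrays did not overlap those at 0 h or 48 h, and the differences were 0.54 ± 0.09 (SE) at 24 h against 0 h and -0.59 ± 0.08 at 48 h against 24 h, with limma's adjusted p of 0.000312 and 0.00252. The 11 others, Bbc3 (Puma), Bik, Hrk and Bnip3 among them, did not pass in any comparison; Bnip3 had 0.46 at 24 h and 0.35 at 48 h against 0 h.

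Upstream of Bid, 2 of 10 measured genes of the death receptor arm rose at 24 h and 3 of 10 at 48 h against 0 h, with list medians of 0.14 and 0.07. Tnfrsf1a, a TNF receptor, read 7.47 ± 0.20 at 24 h and 7.12 ± 0.15 at 48 h, against 6.63 ± 0.18 at 0 h (SD), differences of 0.84 ± 0.10 and 0.49 ± 0.10 (SE) with limma's adjusted p of 2.38e-05 and 0.00539. Tradd, its adaptor, was higher by 0.37 at 24 h and 0.46 at 48 h, and 2 of its 3 probe sets rose each time. The 24 h adjusted p of 0.0471 became 0.059 with batch as a block and up to 0.126 with 1 array left out. Traf2, a ubiquitin ligase of the same complex, was higher by 0.41 at 48 h with adjusted p = 0.0168, up to 0.0565 with 1 array left out. Fas, Fasl, Tnf, Fadd, Cflar and Casp8 did not pass.

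Downstream, 15 of 17 apoptosome genes and caspases were measured, 1 fell at 24 h, and 2 rose and 1 fell at 48 h against 0 h, with list medians of 0.05 and 0.10. Dffb, the nuclease that cuts DNA between nucleosomes, read 5.99 ± 0.26 at 48 h against 4.92 ± 0.25 at 0 h (SD), a difference of 1.07 ± 0.15 (SE) with limma's adjusted p = 0.000166, in 1 of its 2 probe sets. Its 24 h difference of 0.47 had adjusted p = 0.0713, and with batch as a block 0.0224. Aifm1, a mitochondrial flavoprotein, was higher by 0.32 at 48 h with adjusted p = 0.0174, 0.0501 with the block and up to 0.0539 with 1 array left out. Casp12, an endoplasmic reticulum caspase under the table's median on all 17 arrays, was lower by 0.47 at 24 h and 0.46 at 48 h. These falls passed in 1 of its 2 probe sets. Its 48 h difference was 0.16 with the endothelial covariate, not passing. Apaf1, Cycs, Diablo, Casp8 and Casp9 did not pass. Of 7 inhibitor of apoptosis genes, Birc3 (cIAP2) was the 1 that passed, at 24 h in 1 of its 2 probe sets, with 0.59 ± 0.18 and adjusted p = 0.0425, up to 0.11 with 1 array left out. Its 48 h difference of 0.50 had adjusted p = 0.0942, and 0.0207 with the block; that list's medians were -0.11 at 24 h and -0.02 at 48 h.

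Of 26 binding partners and regulators of family proteins, 6 rose and 4 fell at 24 h, and 7 rose and 2 fell at 48 h against 0 h, with list medians of 0.03 and 0.05. Pim3, a kinase that phosphorylates Bad, was lower by 0.57 at 24 h and 0.67 at 48 h, in 1 of its 3 probe sets, with limma's adjusted p of 0.0023 and 0.000733. Akt2, another kinase of Bad, was higher by 0.63 at 24 h and 0.64 at 48 h in 2 of its 3 probe sets, and the 14-3-3 genes Ywhag and Ywhaz were higher by 0.66 and 0.46 at 24 h and by 0.59 and 0.64 at 48 h. Of the 4 probe sets of Ywhag, 2 rose at 24 h and 3 at 48 h. Of the 7 probe sets of Ywhaz, 1 rose and 1 fell at 24 h, so its direction there is uncertain. The 24 h difference of Ywhaz had an adjusted p of 0.0183, up to 0.0542 with 1 array left out. With the macrophage mean as a covariate, which does not overlap between 0 h and 24 h, that difference was -0.014 and did not pass. Bag3, a co-chaperone of the heat shock response, was higher by 0.65 at 24 h and 0.55 at 48 h. The 6 other genes of this list that passed fall outside the naming rule and are given after their values were seen. Dynll1, a dynein light chain, was lower by 0.55 at 24 h and 0.57 at 48 h, and all 4 of its probe sets fell at 24 h and 3 at 48 h. Dynll2, the other dynein light chain gene of the list, did not pass in any comparison. Fbxw7, a ubiquitin ligase of Mcl1, was higher by 0.53 at 24 h and 0.59 at 48 h, in both of its probe sets, and the 24 h difference was -0.059 with the macrophage covariate and did not pass. Btrc, another ubiquitin ligase subunit, was lower by 0.51 at 24 h in 1 of its 5 probe sets, with adjusted p = 0.018, and its 48 h difference of -0.24 did not pass. Usp9x, which removes ubiquitin from Mcl1, was lower by 0.43 at 24 h, and 3 of its 7 probe sets fell then. Its 48 h difference of -0.15 did not pass. Vdac3, a channel of the mitochondrial outer membrane, was higher by 0.49 at 24 h and 0.45 at 48 h, with adjusted p of 0.000142 and 0.000431. Mapk9, the kinase JNK2, was higher by 0.35 at 48 h in 1 of its 3 probe sets, with adjusted p = 0.0266, up to 0.0809 with 1 array left out.

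Of 16 transcriptional regulators, 4 rose at 24 h and 3 at 48 h against 0 h, and none fell, with list medians of 0.13 and 0.03. Stat3, which acts on Mcl1 and Bcl2l1, read 9.11 ± 0.29 at 24 h and 9.04 ± 0.07 at 48 h, against 8.01 ± 0.21 at 0 h (SD), differences of 1.10 and 1.03 with limma's adjusted p of 6.51e-06 and 1.88e-05, in 2 of its 4 probe sets. Ddit3 (CHOP), a factor of the unfolded protein response, read 8.14 ± 0.36 at 24 h and 7.94 ± 0.22 at 48 h, against 7.01 ± 0.33 at 0 h (SD), differences of 1.13 and 0.94, and both of its probe sets rose at each time. Jun was higher by 0.60 at 24 h with adjusted p = 0.0311, up to 0.0981 with 1 array left out. Atf4 was higher by 0.48 at 24 h and 0.43 at 48 h, with adjusted p up to 0.059 and 0.102 with 1 array left out. Of the 3 probe sets of Atf4, 2 rose at 24 h and 1 at 48 h. Foxo1, Foxo3, Rela, Myc and Hif1a did not pass. Of 11 other genes of the mitochondrial outer membrane or of mitochondrial dynamics, 1 fell at 24 h and 1 rose at 48 h, with list medians of 0.07 and 0.08. Fis1, a fission factor, rose by 0.36 at 48 h in 1 of its 2 probe sets, with adjusted p = 0.00722. Opa1, a fusion factor of the inner membrane, fell by 0.27 at 24 h in 1 of its 3 probe sets. Its adjusted p was 0.0438, or 0.0992 with batch as a block.

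**Figure D4:**
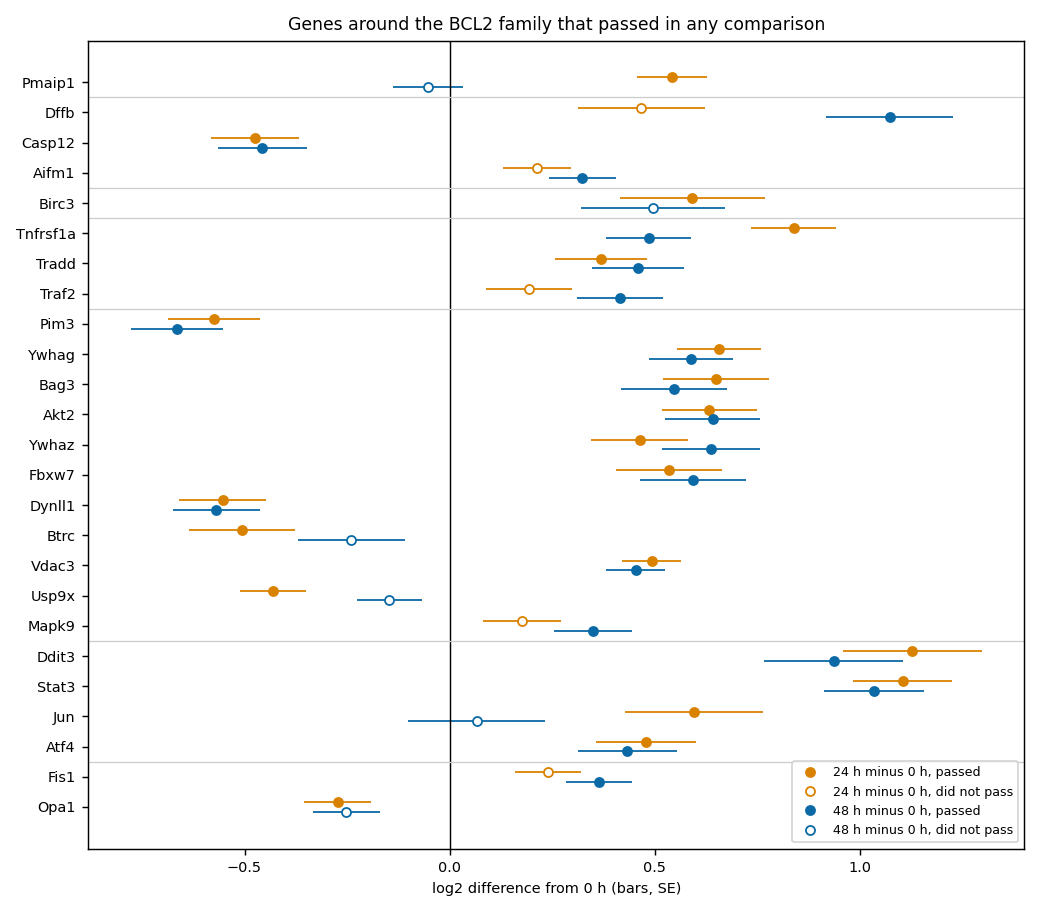
Log2 difference (points) with SE (bars) at 24 h and 48 h against 0 h for the 25 listed genes that passed in any comparison, grouped by list from the other family member Pmaip1 at the top to mitochondrial genes at the bottom. Filled points passed at an adjusted p under 0.05; Stat3, Ddit3 and Dffb reach a difference of 1 or more.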

How the data were processed

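RNA of whole islets was amplified, labelled with biotin and hybridised to 1 single-colour array per sample, per the labels. The deposited values are log2 levels per probe set that the authors made by RMA, a tool that the submitters' processing notes name without a version. RMA quantile-normalises the arrays, which removes a change shared by most transcripts and compresses differences of weak ones. The log base was inferred from values between 1.55 and 13.81. No detection call was used, and the number of arrays limits the precision.

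Of 45101 rows, 64 controls were left out and 45037 probe sets tested with no filter on level; 34945 had 1 gene symbol, 932 several and 9160 none, and no gene was named from several. limma 3.58.1 in R 4.3.3 (lmFit with 1 mean per time over 17 arrays, eBayes) tested 3 comparisons, with Benjamini-Hochberg adjustment over all probe sets of each and a threshold of 0.05. Scripts were tested on simulated data. The members and the gene lists were chosen with earlier results of these data known. All 10 genes are named, each by its probe set with the highest mean, together with any member probe set that passed, and up to 5 passing genes per list by absolute difference from 0 h. The 3 most alike genes were sought for passing member probe sets, since no representing one passed. Protein sequences and the motif search planned on them were not analysed here. Symbols listed but without a probe set of their own, such as Bax, were not analysed here.

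The design text states that the arrays of a batch come from the same pool of mice, so batches pair the arrays. Deviations from the time means correlated at a median r of 0.01 in 16 same-batch pairs and -0.01 in 80 other pairs. Alternatives comprised batch as a fixed or random block, array weights, other normalisation, filters and probe set rules, marker means as covariates and leaving out each array; the values per member probe set and per listed gene under these were added after seeing the data.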

Additional observations from a re-analysis of the deposited data

Results flagged for a closer look

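Arrays that stood apart from the others of their time were sought in 117 groups, which were the representing probe sets of members, those that passed with or without the batch block, and the passing list genes, each at 3 times, by the gap to the nearest array relative to the whole range. 10 were found, where chance alone flags about 1 in 20 groups. Of the members, Bcl2l11 read 6.72 in batch 6 at 0 h, against 8.10 to 8.49 in the other 0 h arrays, and the representing probe set of Bmf read 5.68 in batch 1 at 24 h, against 5.46 to 5.53 in the rest. Also in batch 6 at 0 h, Pmaip1 read 2.32, below the others at 2.51 to 2.55, and Birc3 read 7.95, above the others at 7.03 to 7.30. The 0 h array of batch 3 held 4 of the 10: Ywhaz at 9.70, below 9.95 to 10.04; Fbxw7 at 7.12, below 7.66 to 7.77; Dynll1 at 10.64, above 10.19 to 10.26; and Btrc at 6.18, below 6.49 to 6.53. The 24 h array of batch 5 held 2: Mapk9 at 6.66, below 6.96 to 7.10, and Stat3 at 8.55, below 9.14 to 9.41. These last 2 arrays, batch 3 at 0 h and batch 5 at 24 h, are also those that correlated least with their own time, and without both of them the Mcl1 and Bmf probe sets that passed at 24 h passed again, with limma's adjusted p of 0.00666 for 1448503_at, 0.000281 for 1416881_at and 0.00747 for 1454880_s_at.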

How the results depend on the processing

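No representing probe set passed with the main settings, and few did otherwise. At 24 h against 0 h, 1 member gene passed, Bid and higher, with batch as a fixed replicate block, without batch 5, with array weights and without the 2 arrays that stand apart; 1 with the macrophage covariate, Bcl2l2 and lower; 1 with no _x_at or _s_at probe sets, Mcl1 and higher; and 2 with the mean of all probe sets, Bmf and Mcl1, higher by 0.27 and 0.28. At 48 h against 0 h, 1 passed with the mean of all probe sets, Bcl2 and lower, and 1 with no _x_at or _s_at probe sets, Mcl1 and higher; at 48 h against 24 h, 1 passed with the macrophage covariate, Bcl2l2 and higher. Leaving out 1 array gave 0 to 1 at 24 h, the 1 being Bid without the batch 5 array. The member probe sets that passed at 24 h numbered 3 to 4 over the left-out arrays, 5 with the replicate block and 0 with the endothelial covariate; at 48 h 2 to 3, 0 with the acinar or endothelial and 1 with the macrophage covariate; at 48 h against 24 h 0, and 1 with the macrophage covariate. Over the whole table the counts of 3862, 3815 and 200 became 158, 4 and 1 with the endothelial covariate, 1645, 1514 and 716 with the macrophage covariate and 2154, 1939 and 50 at an adjusted p under 0.01. The acinar covariate gave 1184 at 48 h against 0 h and 28 at 48 h against 24 h, array weights gave 321 and leaving out the 2 arrays 324 at 48 h against 24 h. Left-out arrays gave 3041 to 3869, 2862 to 4221 and 102 to 263. Of 3558 values of single genes or probe sets under alternatives, 1346 belong to results that passed: 1183 kept direction and call, 160 lost the call and 3 turned: Casp12 at 48 h to 0.16 with the endothelial covariate, and Fbxw7 to -0.059 and Ywhaz to -0.014 at 24 h with the macrophage covariate. The 2212 others belong to results that did not pass; 40 of them passed, and 120 changed sign, 113 of these where the difference was under 0.2. The endothelial mean does not overlap between any times. The macrophage mean does not between 0 h and 24 h, nor the acinar mean, narrowly, between 0 h and 48 h. Time and the covariate cannot be told apart in those comparisons. The cause was not tested. The block changed no call of a member beyond those given with the results. Levels near the median of 3.52, as for Bak1 and Bid, cannot be separated from background.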
